A study of Schizosaccharomyces pombe with 16 samples.

Results

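Sexual differentiation in fission yeast (Schizosaccharomyces pombe) is described here through 9 genes, the transcription factor gene ste11 and 8 genes of the mating and meiosis programme that it is known for. They were taken by their systematic IDs, and all 9 were found among the 5195 genes of the array, by 13 of its 15207 probes. The study measured total RNA of strains with mutations in the CTD of RNA polymerase II, a tail on its largest subunit Rpb1 that repeats a stretch of 7 residues (a heptad) rich in serine. In the S7E allele of rpb1 the seventh residue of each altered heptad is glutamate, in S2A/S7A the second and the seventh are alanine, in S2A the second alone is alanine, and in S7A the seventh alone is. Per the labels, each mutant protein has 14 altered heptads behind 18 repeats called the rump, and the wild type (WT) is given no further genotype. The labels do not say whether a mutant is 1 clone or which mating type the strains have.

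Splicing-sensitive two-colour Agilent arrays set each mutant against WT, with 3 arrays for S7E, 5 for S2A/S7A, 4 for S2A and 4 for S7A. Cells grew in YES, a rich medium, to mid-log phase, and replicates were grown separately. A value is the log2 ratio of mutant over WT for the exon probe of a gene, so 1 means double the WT signal. The labels give neither the direction nor the base in words, and both are taken as likely. Between 13061 and 14918 probes had a value on an array, and the number of arrays limits the precision. Intensities are not part of these values, so whether a probe stood above background is unknown, and levels of different genes cannot be compared. A difference that passed the test has a Benjamini-Hochberg adjusted p under 0.05 (limma, two-sided, over 5163 genes), and ± is the standard error of the fit. Each ratio includes WT RNA on the same array. The labels do not say whether that RNA came from 1 culture, so how much of the spread of WT the test covers is unknown. S7A replicate 4 stood above the other S7A arrays for 7 of the 9 genes (ste11, mei2, map1, map2, sxa1, gpa1 and spk1). The share of all genes for which it did so is not given here, so this count is not particular to the 9.

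Fission yeast cells mate when nutrients run out. Starvation and stress signals raise ste11, whose HMG-box protein then switches on genes for mating pheromones, their receptors and the pheromone signalling cascade, and also mei2, whose RNA-binding protein starts meiosis. P cells secrete P-factor and sense M-factor, M cells do the reverse, and in both the bound receptor acts through the G protein subunit Gpa1 and a MAP kinase cascade that ends in Spk1. In growing, well-fed cells this programme is largely off.

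The 9 genes were split between the mutants. Of the 9, 7 were higher than WT and 0 lower in S7E, 6 higher and 2 lower in S2A/S7A, 3 higher and 5 lower in S2A, and 6 higher and 0 lower in S7A. Large shares of all genes passed the same test, which sets the background for these counts. In S7E 33.5% of all genes tested were higher and 27.6% lower, in S2A/S7A 35.1% and 27.8%, in S2A 31.2% and 27.1%, and in S7A 18.0% and 16.6%. The median of the 9 genes was 0.28 in S7E against a median of 0.038 over all genes, 0.28 against 0.043 in S2A/S7A, -0.38 against 0.025 in S2A, and 0.38 against 0.0027 in S7A. By array, that median lay between 0.23 and 0.42 in S7E, 0.25 and 0.37 in S2A/S7A, -0.49 and -0.25 in S2A, and 0.14 and 0.66 in S7A, so the S2A arrays lay apart from all others. With signs ignored, the median change of the 9 genes was 0.28 in S7E, against 0.26 over all genes. It was 0.42 against 0.22 in S2A/S7A, 0.47 against 0.21 in S2A and 0.38 against 0.13 in S7A. In S7E the count of higher genes rested on few arrays, since it was 3 without S7E replicate 2 and 4 without S7E replicate 3.

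**Figure D1:**
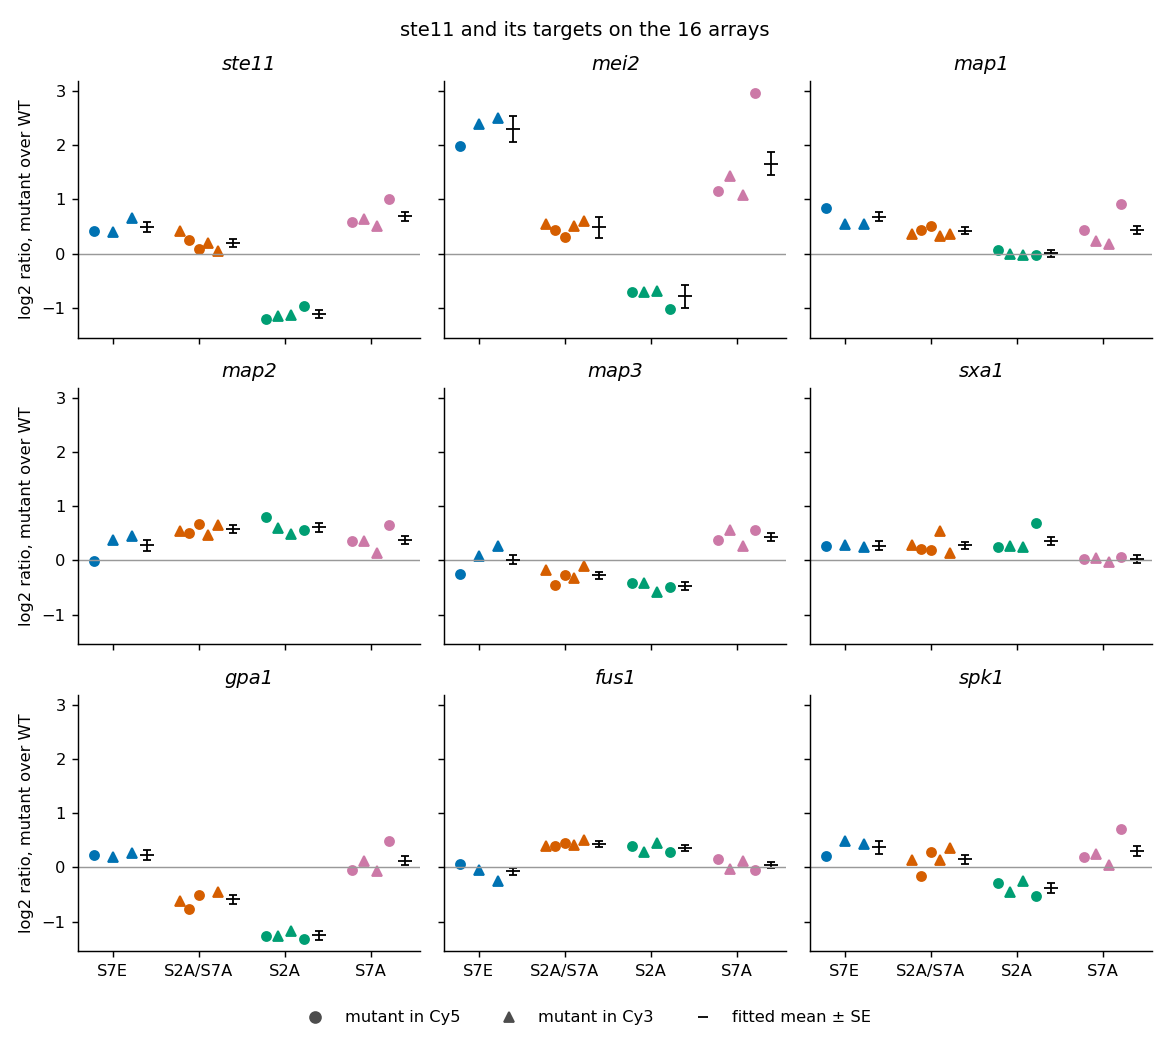
Log2 ratio of mutant over WT (y axis) for each of the 9 genes, 1 point per array (circles with the mutant in Cy5, triangles in Cy3), with the mutants along the x axis and the fitted mean ± SE in black. The S2A points of ste11, mei2, gpa1, map3 and spk1 all lie below 0, and those of map2, sxa1 and fus1 all lie above it.

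The regulator itself, ste11 (SPBC32C12.02), was lower than WT in S2A alone. Its log2 ratio was 0.43, 0.40 and 0.65 on the 3 S7E arrays, and 0.42, 0.25, 0.086, 0.19 and 0.044 on the 5 S2A/S7A arrays. On the 4 S2A arrays it was -1.20, -1.16, -1.14 and -0.96, and on the 4 S7A arrays 0.59, 0.65, 0.51 and 1.01. All S2A arrays lay below 0 and all others above it, and the S7E arrays overlapped with those of S2A/S7A and S7A. The fit put ste11 at 0.50 ± 0.091 in S7E (1.41-fold, adjusted p = 0.000285), -1.12 ± 0.078 in S2A (2.17-fold lower, adjusted p = 1.89e-08) and 0.69 ± 0.078 in S7A (1.61-fold, adjusted p = 1.03e-05). In S2A it ranked 56 from the lowest of all genes tested, and in S7A 85 from the highest. In S2A/S7A it was at 0.20 ± 0.071 (adjusted p = 0.0212), a call lost when arrays were centred (adjusted p = 0.0588), without S2A/S7A replicate 1 (0.109) and without S2A/S7A replicate 2 (0.0637).

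The target mei2 (SPAC27D7.03c), which encodes the RNA-binding protein that starts meiosis, had the widest spread between mutants of the 9. It stood at 1.99, 2.39 and 2.49 on the S7E arrays, and at 0.54, 0.44, 0.31, 0.51 and 0.61 on the S2A/S7A arrays. The S2A arrays read -0.70, -0.72, -0.69 and -1.01, and the S7A arrays 1.16, 1.43, 1.09 and 2.97. The order of the fitted values from high to low was S7E, S7A, S2A/S7A, S2A, and only the S7E and S7A arrays overlapped. The difference between S7E and S7A missed the threshold with all arrays (adjusted p = 0.127), but passed without S7A replicate 4 (adjusted p = 5.30e-06). With arrays scaled to equal spread the order of these mutants turned, with 1.94 in S7E and 2.28 in S7A. In S7E mei2 rose by 2.30 ± 0.25, which is 4.92-fold (adjusted p = 1.91e-06) and rank 4 from the highest of all genes, and in S7A by 1.66 ± 0.21, which is 3.16-fold (adjusted p = 3.13e-05) and rank 8. Without S7A replicate 4, mei2 was at 1.19 in S7A (adjusted p = 6.67e-08). In S2A it was at -0.78 ± 0.21, 1.72-fold lower (adjusted p = 0.00537). In S2A/S7A it was at 0.49 ± 0.19 (adjusted p = 0.0371), and this call was lost when arrays were centred (0.0534), with the replicate number as a block (0.0531) and without each S2A/S7A array in turn (0.0534 to 0.0929).

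The P-cell activator gene map1 (SPAC11E3.06), which encodes a MADS-box factor, was higher in all mutants but S2A. It read 0.84, 0.54 and 0.54 in S7E, from 0.33 to 0.52 on the 5 S2A/S7A arrays, from -0.026 to 0.069 on the S2A arrays, and 0.43, 0.23, 0.17 and 0.91 in S7A. All S2A arrays lay below all others. The fitted values were 0.68 ± 0.083 in S7E (adjusted p = 6.30e-06), 0.42 ± 0.064 in S2A/S7A (adjusted p = 3.86e-05), 0.0044 ± 0.071 in S2A (adjusted p = 0.961; 95% interval -0.15 to 0.16) and 0.44 ± 0.071 in S7A (adjusted p = 0.000266). Arrays with the mutant in Cy5 read 0.22 higher than those in Cy3, the largest dye term of the 9 genes (adjusted p = 0.210).

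The pheromone gene map2 and the receptor gene map3 behaved differently in S2A. map2 (SPCC1795.06), the gene of the P-factor precursor, was higher in all 4 mutants, at -0.011, 0.38 and 0.44 in S7E, 0.47 to 0.67 in S2A/S7A, 0.49 to 0.79 in S2A, and 0.14 to 0.66 in S7A. Its fitted rise was 0.28 ± 0.095 in S7E (adjusted p = 0.0209), 0.57 ± 0.073 in S2A/S7A (adjusted p = 8.15e-06), 0.61 ± 0.082 in S2A (adjusted p = 1.45e-05) and 0.38 ± 0.082 in S7A (adjusted p = 0.00252). The S7E value rested on its arrays one by one, being 0.48 without S7E replicate 1, 0.22 (adjusted p = 0.132) without S7E replicate 2 and 0.18 (adjusted p = 0.176) without S7E replicate 3. map3 (SPAC3F10.10c), which encodes the receptor of P cells for M-factor, read -0.25, 0.084 and 0.26 in S7E, and -0.18, -0.45, -0.27, -0.33 and -0.11 in S2A/S7A. In S2A it read -0.41, -0.41, -0.57 and -0.49, and in S7A 0.37, 0.57, 0.26 and 0.56. Every S7A array was thus above 0, and every S2A and S2A/S7A array below it. map3 was lower in S2A/S7A (-0.28 ± 0.066, adjusted p = 0.00190) and S2A (-0.47 ± 0.073, adjusted p = 5.69e-05) and higher in S7A (0.44 ± 0.073, adjusted p = 0.000310), and was at 0.015 ± 0.085 in S7E (adjusted p = 0.892).

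The protease gene sxa1 (SPAC2E1P5.06 on the array, a synonym of SPAC26A3.01) encodes an aspartic protease of P cells. Its range was 0.25 to 0.28 in S7E, 0.15 to 0.55 in S2A/S7A, 0.24 to 0.70 in S2A and -0.028 to 0.071 in S7A, so all S7A arrays lay below all others. It rose by 0.27 ± 0.085 in S7E (adjusted p = 0.0129), 0.28 ± 0.066 in S2A/S7A (adjusted p = 0.00191) and 0.37 ± 0.073 in S2A (adjusted p = 0.000558), and was at 0.031 ± 0.073 in S7A (adjusted p = 0.774). The S7E call was lost without S7E replicate 1 (adjusted p = 0.0516) and without S7E replicate 2 (0.0563).

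Of the signalling genes, gpa1 (SPBC24C6.06), for the G protein alpha subunit behind both pheromone receptors, had the lowest value of the 9 genes in S2A. It read 0.23, 0.18 and 0.27 in S7E, and -0.62, -0.77, -0.51 and -0.45 on 4 S2A/S7A arrays, with the value of S2A/S7A replicate 4 missing. In S2A it read -1.27, -1.26, -1.18 and -1.31, and in S7A -0.048, 0.11, -0.065 and 0.49. The S2A arrays lay lowest, the S2A/S7A arrays next, and those of S7E and S7A overlapped. The fit gave -0.59 ± 0.078 in S2A/S7A (1.51-fold lower, adjusted p = 1.62e-05), -1.26 ± 0.078 in S2A (2.39-fold lower, adjusted p = 1.27e-08; rank 45 from the lowest) and 0.12 ± 0.078 in S7A (adjusted p = 0.251). In S7E it was at 0.23 ± 0.091 (adjusted p = 0.0442), a call lost in 12 of 26 alternative settings, among them without any of the 3 S7E arrays (0.0874 to 0.147).

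spk1 (SPAC31G5.09c), the gene of the MAP kinase of the pheromone cascade, ranged from 0.20 to 0.48 in S7E, -0.15 to 0.35 in S2A/S7A, -0.53 to -0.25 in S2A and 0.044 to 0.70 in S7A. All S2A arrays lay below all others. It was higher in S7E (0.37 ± 0.11, adjusted p = 0.0112), lower in S2A (-0.38 ± 0.096, adjusted p = 0.00330), and at 0.15 ± 0.086 in S2A/S7A (adjusted p = 0.153), where it passed without S2A/S7A replicate 2 (0.23, adjusted p = 0.0412). Its value in S7A was 0.30 ± 0.096 (adjusted p = 0.0261), and 0.15 without S7A replicate 4 (adjusted p = 0.219), 0.33 without S7A replicate 1 (0.0508) and 0.32 without S7A replicate 2 (0.0622). In S7E the call was lost without S7E replicate 2 (adjusted p = 0.0713) and without S7E replicate 3 (0.0528).

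fus1 (SPAC20G4.02c) encodes the formin that builds actin at the site of cell fusion. It read 0.065, -0.054 and -0.25 in S7E, 0.39 to 0.50 in S2A/S7A, 0.28 to 0.46 in S2A, and 0.16, -0.031, 0.12 and -0.047 in S7A. The arrays of both mutants with alanine at the second residue lay above those of the other two. fus1 rose by 0.43 ± 0.049 in S2A/S7A (adjusted p = 2.13e-06) and 0.35 ± 0.054 in S2A (adjusted p = 5.72e-05), and was at -0.075 ± 0.063 in S7E (adjusted p = 0.317) and 0.049 ± 0.054 in S7A (adjusted p = 0.522).

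The mutants were then compared with each other in the same fit. Between S2A and S7A, the alanine mutants of different residues, 8 of the 9 genes passed, 2 higher and 6 lower in S2A, where 42.0% of all genes passed (21.9% higher and 20.1% lower). The fall relative to S7A was 2.44 ± 0.30 on the log2 scale for mei2 (adjusted p = 1.42e-05; rank 5 from the lowest of all genes), and the difference was -1.80 ± 0.11 for ste11 (adjusted p = 1.39e-08; rank 13). It was -1.38 ± 0.11 for gpa1 (adjusted p = 4.05e-07), -0.91 ± 0.10 for map3 (adjusted p = 6.32e-06), -0.68 ± 0.14 for spk1 (adjusted p = 0.000996) and -0.43 ± 0.10 for map1 (adjusted p = 0.00293). The mei2 difference ran from -2.99 to -1.93 over the alternatives and kept its call. The map1 value was -0.26 (adjusted p = 0.00123) with 3 arrays that stand apart left out, 1 each of S7E, S2A and S7A. sxa1 was higher in S2A by 0.33 (adjusted p = 0.0174), which was 0.22 without S2A replicate 4 (adjusted p = 0.0395), and fus1 by 0.30 (adjusted p = 0.00542). For map2 the difference was 0.23 (adjusted p = 0.118; 95% interval -0.012 to 0.48), and it passed without S7A replicate 4 (adjusted p = 0.0305) and without S7E replicate 1 (0.0417).

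**Figure D2:**
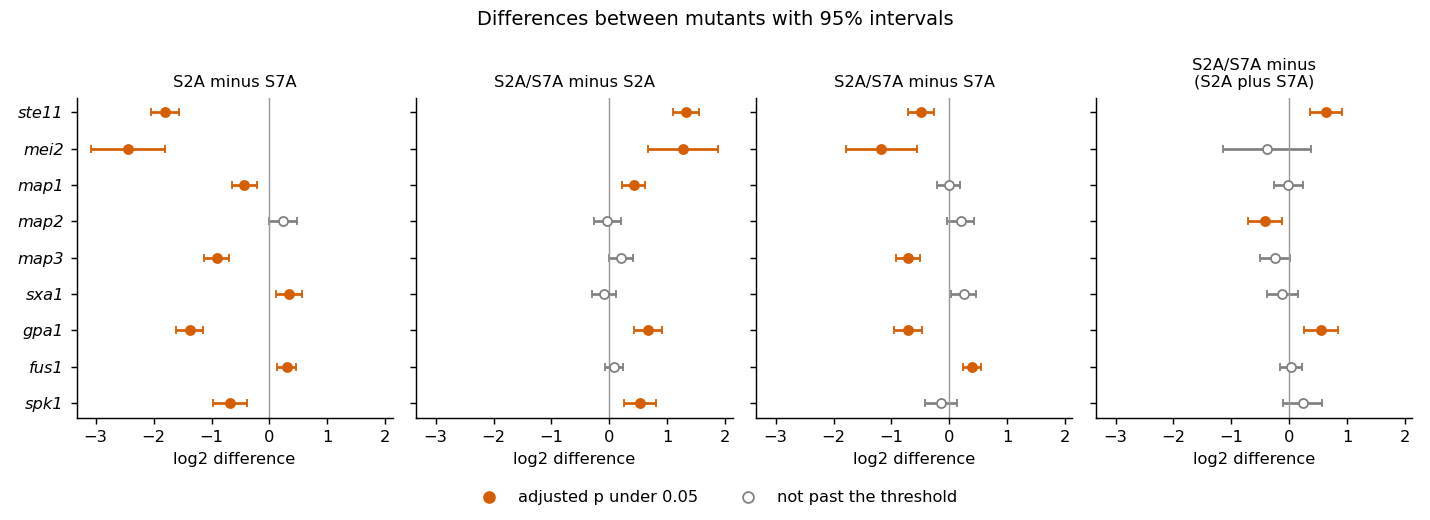
Fitted log2 differences between mutants (x axis) for the 9 genes (rows), with 95% intervals, in 4 panels: the 3 contrasts among the alanine mutants and S2A/S7A against the sum of S2A and S7A. Filled points passed the test, and ste11, mei2 and gpa1 are lower in S2A than in S7A and higher in S2A/S7A than in S2A.

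The double mutant S2A/S7A stood above S2A for 5 genes and below it for 0, where 12.0% of all genes were higher and 11.3% lower (23.2% in either direction). The difference was 1.32 ± 0.11 for ste11 (2.49-fold, adjusted p = 6.97e-07), rank 13 from the highest of all genes. It was 1.27 ± 0.29 for mei2 (2.41-fold, adjusted p = 0.00533), rank 15. gpa1 differed by 0.66 ± 0.11 (adjusted p = 0.000789), spk1 by 0.53 ± 0.13 (adjusted p = 0.00880) and map1 by 0.42 ± 0.095 (adjusted p = 0.00559). For the other 4 genes the 95% interval spanned 0, for example -0.014 to 0.40 for map3 and -0.073 to 0.24 for fus1. Of these, map3 passed with array weights (0.25, adjusted p = 0.0161). With exon, intron and junction probes averaged, the map1 difference was 0.28 (adjusted p = 0.0367).

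Against S7A, the double mutant was higher for 1 gene and lower for 4, where 22.7% of all genes were higher and 18.8% lower (41.6% in either direction). fus1 was the gene higher in S2A/S7A (0.38 ± 0.073, adjusted p = 0.000694). The lower ones were mei2 (-1.17 ± 0.29, adjusted p = 0.00407), map3 (-0.72 ± 0.098, adjusted p = 3.92e-05), gpa1 (-0.71 ± 0.11, adjusted p = 0.000164) and ste11 (-0.48 ± 0.11, adjusted p = 0.00188). The mei2 difference was -0.73 without S7A replicate 4, and that of mei2 and ste11 was -1.81 and -0.77 with arrays scaled to equal spread. All of these passed under those settings. sxa1 (0.25, adjusted p = 0.0574) missed the threshold but passed in 6 alternative settings, among them with the replicate block (0.28, adjusted p = 0.0126), without S2A replicate 4 (0.24, 0.0120) and without S2A/S7A replicate 5 (0.28, 0.0497). map2 (0.20, adjusted p = 0.170) passed with array weights (0.26, 0.00562), without the 3 arrays that stand apart (0.28, 0.00479) and without S7A replicate 4 (0.29, 0.0469).

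S7E and S7A replace the same residue, with glutamate and with alanine. Of the 9 genes 1 passed, lower in S7E, where 42.9% of all genes passed (22.8% higher and 20.2% lower). That gene was map3 (-0.43 ± 0.11, adjusted p = 0.00690), and it missed the threshold without S7E replicate 1 (-0.28, adjusted p = 0.0671). For mei2 the difference was 0.64 ± 0.33 (adjusted p = 0.127; 95% interval -0.059 to 1.33), and it passed without S7A replicate 4 (1.07, adjusted p = 5.30e-06). It also passed with array weights (1.08, adjusted p = 8.11e-05) and without the 3 arrays that stand apart (1.18, 4.75e-07). With arrays scaled to equal spread the sign turned (-0.34, adjusted p = 0.441), so the direction between S7E and S7A for mei2 depends on the scaling. For ste11 it was -0.19 ± 0.12 (adjusted p = 0.223; 95% interval -0.44 to 0.070), and with arrays scaled to equal spread it was -0.53 (adjusted p = 0.00229). The intervals of the other genes ran from -0.37 to 0.17 for map2, 0.011 to 0.48 for map1 (adjusted p = 0.0836), 0.00012 to 0.48 for sxa1 (adjusted p = 0.0979), -0.15 to 0.36 for gpa1, -0.25 to 0.38 for spk1 and -0.30 to 0.054 for fus1. These intervals do not show that the mutants act alike, and map1 (0.36, adjusted p = 0.000982) and gpa1 (0.23, 0.0437) passed without S7A replicate 4, and sxa1 without S2A replicate 4 (0.0293).

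Against S2A, S7E was higher for 6 genes and lower for 1, where 17.3% of all genes were higher and 18.1% lower (35.5% in either direction). The differences were 3.08 ± 0.33 for mei2 (8.46-fold, adjusted p = 4.33e-06), 1.61 ± 0.12 for ste11 (3.06-fold, adjusted p = 1.63e-07) and 1.48 ± 0.12 for gpa1 (2.79-fold, adjusted p = 6.39e-07). spk1 (0.75), map1 (0.68) and map3 (0.49) were higher too, with adjusted p of 0.00122, 0.000223 and 0.00359. The map1 difference was 0.43 (adjusted p = 0.00425) with exon, intron and junction probes averaged. fus1 was the gene lower in S7E (-0.43 ± 0.083, adjusted p = 0.00112), and map2 missed the threshold (-0.33 ± 0.13, adjusted p = 0.0502) but passed in 8 of 27 alternative settings (0.0273 to 0.0499), among them without S7A replicate 3 or 4, S2A replicate 4, and S7E replicate 2 or 3.

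Against S2A/S7A, S7E was higher for 3 genes and lower for 1, where 16.9% of all genes were higher and 19.1% lower (36.0% in either direction). mei2 differed by 1.81 ± 0.31 (3.51-fold, adjusted p = 0.000398; rank 3 of all genes) and gpa1 by 0.82 ± 0.12 (adjusted p = 0.000156), while fus1 was lower (-0.51 ± 0.079, adjusted p = 0.000192). map3 was higher by 0.29 ± 0.11 (adjusted p = 0.0443), a call lost in 12 of 27 alternative settings (adjusted p up to 0.224, without S7E replicate 3). ste11 was at 0.30 ± 0.11 (adjusted p = 0.0552). It passed in 6 of them, among them without S7A replicate 4 (0.0240), without S2A replicate 4 (0.0468) and without S2A/S7A replicate 1 (0.0245). map1 (0.26, adjusted p = 0.0667) passed in 5 settings, namely with arrays centred (adjusted p = 0.0491), with array weights (0.0152), without the 3 arrays that stand apart (0.0147), without S7A replicate 4 (0.00583) and without S2A replicate 4 (0.0494). map2 (-0.30, adjusted p = 0.0660) passed without S7A replicate 4 (-0.30, 0.0394) and without S7E replicate 3 (-0.39, 0.0389).

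On the log2 scale, S2A/S7A was set against the sum of S2A and S7A, and 3 of the 9 genes differed from it, 2 higher and 1 lower, where 13.6% of all genes were higher and 12.8% lower (26.4% in either direction). ste11 stood 0.63 ± 0.13 above the sum (adjusted p = 0.00289; 95% interval 0.35 to 0.91), and gpa1 0.54 ± 0.14 above it (adjusted p = 0.00998). map2 stood 0.41 below it (adjusted p = 0.0366). For mei2 the value was -0.39 ± 0.36 (adjusted p = 0.446). With arrays scaled to equal spread the ste11 value was 0.27 (adjusted p = 0.116) and that of mei2 -1.10 (adjusted p = 0.0272). Without S7A replicate 4 the mei2 value was 0.055 (adjusted p = 0.771), so its sign rests on that array. The gpa1 call was lost with the replicate number as a block (adjusted p = 0.0519). map3 (-0.25, adjusted p = 0.154) passed with arrays scaled to equal spread (-0.44, 0.00910). spk1 (0.23, adjusted p = 0.317) passed with array weights (0.29, 0.0296). The call for map2 was lost in 9 of 27 alternatives, namely with the replicate block and without S7A replicate 1, 2 or 4, S2A replicate 1 or 2, or S2A/S7A replicate 1, 2 or 4 (adjusted p from 0.0553 to 0.0880).

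Only map1 of the 9 genes has intron and junction probes. Here the exon value was taken from the value of each such probe, so a negative result means less signal in the intron, relative to the exon, in the mutant than in WT. The probe of its second intron read 0.20 in S7E (3 arrays), 0.38 in S2A/S7A, 0.30 in S2A and 0.027 in S7A (2 arrays each). Relative to the exon it was lower in S7E (-0.48 ± 0.090, adjusted p = 0.00179) and in S7A (-0.31 ± 0.11, adjusted p = 0.0468), where 44.0% and 37.0% of all intron probes passed. The S7A call was lost in 8 alternative settings, including without S7A replicate 3 (0.0582), without S2A replicate 3 (0.0524), without S7E replicate 2 (0.0635) and without S7E replicate 3 (0.0618), and with arrays centred the value was -0.16 (0.235). In S2A/S7A it was -0.062 (adjusted p = 0.662) and in S2A 0.26 (adjusted p = 0.0788), where 50.0% and 39.2% of intron probes passed. The S2A value passed without the 3 arrays that stand apart (adjusted p = 0.0352). The probe across exons 1 and 2 read 0.66 in S7E, 0.36 in S2A/S7A, 0.0073 in S2A and 0.67 in S7A. In S7A the exon value was 0.44, and in the other mutants the probe lay near the exon value. Relative to the exon none of the 4 passed (0.017, -0.044, 0.0029 and 0.23, the last with adjusted p = 0.107). The S7A value passed without S7A replicate 4 (0.35, adjusted p = 0.0246), with array weights (0.29, 0.00179) and without the 3 arrays that stand apart (0.34, 0.00410). Of all junction probes 10.0% passed in S7E, 12.7% in S2A/S7A, 14.5% in S2A and 13.7% in S7A. The other intron and the other junction had too few values for a test.

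Among 13 further genes of pheromone signalling, 3 were higher and 4 lower than WT in S7E, 5 and 2 in S2A/S7A, 4 and 5 in S2A, and 4 and 1 in S7A. As shares of the list these are 23.1% higher and 30.8% lower in S7E, 38.5% and 15.4% in S2A/S7A, 30.8% and 38.5% in S2A, and 30.8% and 7.69% in S7A. Over all genes the shares were 33.5% and 27.6%, 35.1% and 27.8%, 31.2% and 27.1%, and 18.0% and 16.6% in the same order of mutants, so with 13 genes the counts lay within a few genes of that background. The S7A count rested on single arrays, with 2 past the test in place of 5 without S7A replicate 4 and 3 without S7A replicate 2. The list medians were -0.034 in S7E, -0.034 in S2A/S7A, -0.14 in S2A and 0.030 in S7A, beside medians over all genes between 0.0027 and 0.043. mam2, the gene of the P-factor receptor of M cells, was higher in all 4, at 0.44 in S7E, 0.81 in S2A/S7A, 0.77 in S2A and 0.79 in S7A (adjusted p at most 0.000329). ste4, whose product binds the kinase Byr2, was higher in S7E (0.39) and S2A/S7A (0.22) and lower in S2A (-0.44). Its rise in S7A (0.17, adjusted p = 0.0180) was lost without S7A replicate 3 and without S7A replicate 4, and that in S2A/S7A with exon, intron and junction probes averaged. byr2, the MAP kinase kinase kinase gene, was higher in S2A/S7A (0.46) and S2A (0.56). byr1, the gene of the next kinase, was higher in S7E (0.49, adjusted p = 0.000419), lower in S2A (-0.42, adjusted p = 0.00144), where 1 of the 4 arrays had no value, and at 0.06 in S2A/S7A (adjusted p = 0.517). It was also higher in S7A (0.29, adjusted p = 0.0117), a call lost without S7A replicate 4. ste6, which encodes the exchange factor of Ras1, was lower in S7E (-0.59).

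Of 25 genes of the nutrient and kinase pathways that act on ste11, 9 were higher and 5 lower in S7E, 10 and 4 in S2A/S7A, 6 and 3 in S2A, and 10 and 1 in S7A, where 7 passed in place of 11 without S7A replicate 2. Over all genes 33.5% were higher and 27.6% lower in S7E, 35.1% and 27.8% in S2A/S7A, 31.2% and 27.1% in S2A, and 18.0% and 16.6% in S7A. The share of the list that was lower lay under the share of all genes in each mutant, and the share that was higher lay near it in S7E and S2A/S7A, under it in S2A and above it in S7A. No test goes with these shares. rst2, the gene of a zinc-finger activator of ste11 that protein kinase A holds in check, was higher in every mutant, at 0.60 ± 0.065 in S7E, 0.50 ± 0.050 in S2A/S7A, 1.35 ± 0.055 in S2A (adjusted p = 1.04e-10) and 0.31 ± 0.055 in S7A. On the 4 S2A arrays it read 1.28, 1.28, 1.29 and 1.54, so rst2 was highest in the mutant in which ste11 was lowest. csx1, for an RNA-binding protein of the stress response, was higher in all 4 mutants, at 0.79 in S7E, 0.32 in S2A/S7A, 0.70 in S2A and 0.51 in S7A. pat1, the gene of the kinase that blocks mating and meiosis in growing cells, was higher in S7E (0.50), S2A/S7A (0.55) and S7A (0.37) and at 0.18 in S2A (adjusted p = 0.0522). mip1, for the Raptor homologue of the TOR complex, was higher in S2A/S7A (0.61) and S7E (0.26), the S7E call being lost without S7E replicate 1. nrd1, for an RNA-binding protein that represses Ste11 targets, was higher in S7E (0.66) and S7A (0.23), the S7A call being lost without S7A replicate 4. gpa2, for the G protein subunit of glucose sensing, was lower in S7E (-0.42) and S2A (-0.53).

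Of 13 other genes of mating, fusion and entry into meiosis, mat1-Pc and mat1-Pm of P cells were not found by name. The other 11 were tested. In S7E 4 were higher and 3 lower, in S2A/S7A 7 and 1, in S2A 5 and 2, and in S7A 3 and 2. That is 36.4% and 27.3% of the 11 in S7E, 63.6% and 9.09% in S2A/S7A, 45.5% and 18.2% in S2A, and 27.3% and 18.2% in S7A. All genes had 33.5% and 27.6%, 35.1% and 27.8%, 31.2% and 27.1%, and 18.0% and 16.6%, so the S7E shares lay nearest to the background, and no test goes with the others. mei3, whose product inhibits the Pat1 kinase, was higher in all 4 mutants, at 0.98 ± 0.072 in S7E, 1.47 ± 0.056 in S2A/S7A, 0.89 ± 0.062 in S2A and 0.58 ± 0.062 in S7A (adjusted p at most 5.26e-06). Its S2A arrays read 0.85, 0.95, 0.92 and 0.82, while those of mei2 were all below 0. tht1, a gene of nuclear fusion, was higher in S2A (0.59) and lower in S7A (-1.11), while its calls in S7E (-0.36) and S2A/S7A (0.22) were lost without single arrays (S7E replicate 1, and S2A/S7A replicate 1 or 5). map4, for the adhesin of P cells, was higher in S2A/S7A (0.54), S2A (0.76) and S7A (0.38), and in S7E (0.28) until S7E replicate 2 or 3 was left out. ste7 was higher in S7E (0.68) and S7A (0.55). Of 3 genes that act in cell fusion, dni2 was higher in S2A/S7A (0.63) and S2A (0.32), and its lower value in S7A (-0.25) lost its call without S7A replicate 1, 2 or 3. dni1 was lower in S7E (-0.43, adjusted p = 0.00486), S2A/S7A (-0.69) and S2A (-0.57, adjusted p = 0.000151), the S7E call being lost without S7E replicate 1. prm1 was lower in S7E (-0.52) and S2A (-0.19), the S2A call being lost without S2A replicate 3 or 4.

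**Figure D3:**
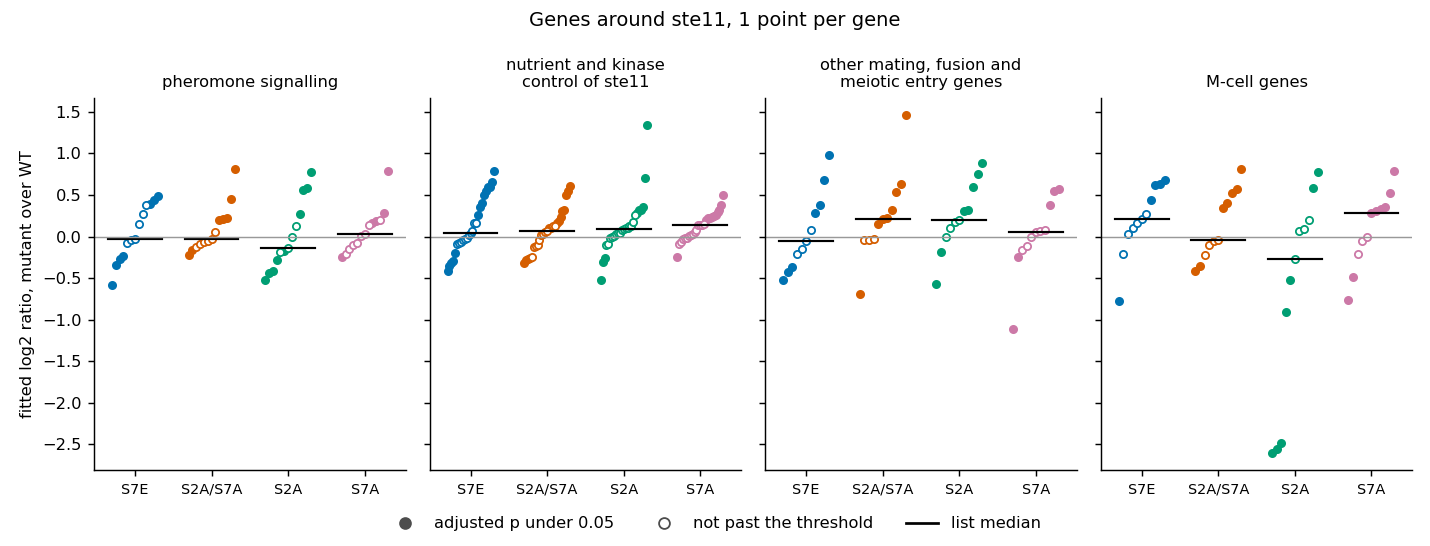
Fitted log2 ratio of mutant over WT (y axis) for the genes of 4 lists (panels), 1 point per gene in order of value, by mutant (x axis). Filled points passed the test and bars mark list medians, and the highest points include mei3 at 1.47 in S2A/S7A and rst2 at 1.35 in S2A.

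Mating type bears on these genes, since map1, map2, map3, map4 and sxa1 are known as genes of P cells. In bulk RNA, fewer cells of one type and less RNA per cell cannot be told apart. Of 11 genes known from M cells, 4 were higher and 1 lower in S7E, 5 and 2 in S2A/S7A, 2 and 5 in S2A, and 6 and 2 in S7A. As shares of the 11 these are 36.4% and 9.09%, 45.5% and 18.2%, 18.2% and 45.5%, and 54.5% and 18.2%, beside 33.5% and 27.6%, 35.1% and 27.8%, 31.2% and 27.1%, and 18.0% and 16.6% of all genes. Their median by array lay between 0.24 and 0.27 in S7E, -0.060 and 0.082 in S2A/S7A, -0.61 and -0.080 in S2A, and 0.10 and 0.26 in S7A. The M count in S7A was 4 in place of 8 without S7A replicate 4, and in S2A all 11 passed without the 3 arrays that stand apart. Of the 11, mam2 and sxa2 were also among the pheromone signalling genes, and mam3 among the other mating genes. The near-identical copies mat1-Mc and mat3-Mc were counted as separate genes.

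mat1-Mc, the gene of the HMG-box regulator of M cells, read 0.34, 0.71 and 0.82 in S7E, 0.47 to 0.83 in S2A/S7A, -2.59, -2.70, -2.62 and -2.04 in S2A, and 0.20 to 0.37 in S7A. It was lower in S2A by 2.49 ± 0.098 on the log2 scale (adjusted p = 7.06e-11), with no overlap between S2A and other arrays. The near-identical copy mat3-Mc (-2.61 ± 0.11) cannot be told apart from it. The M-factor precursor gene mfm2 was at -2.56 ± 0.14 in S2A (adjusted p = 1.48e-09) and at 0.21 in S7E, 0.40 in S2A/S7A and 0.52 in S7A. Its S7A arrays read 0.35, 0.16, 0.31 and 1.28, and without S7A replicate 4 the value was 0.29 (adjusted p = 0.0832). With all probes of the gene averaged, neither S2A/S7A (adjusted p = 0.183) nor S7A (0.203) passed. The S2A value of mfm2 ran from -2.72 to -1.64 over the alternatives and kept its call. The other M-factor genes did not share its fall in S2A. There mfm1 read 0.24, 0.11, 0.16 and -0.13, and mfm3 read 0.089, 0.24, 0.20 and -0.24. Neither passed with all arrays (fitted values 0.09 and 0.07), and both passed as higher without the 3 arrays that stand apart (0.17, adjusted p = 0.0148 and 0.0222). In S7A mfm1 was at -0.49 and mfm3 at -0.77, and without S7A replicate 4 at -0.70 and -0.99. mat1-Mi was at -0.91 in S2A and 0.64 in S7E, mam2 was higher in S2A (0.77), and mam4, for the enzyme that methylates M-factor, was lower in S7E (-0.78), S2A/S7A (-0.42) and S2A (-0.52). sxa2, for a protease of M cells, was higher in S2A (0.58, adjusted p = 0.00105). In S2A the genes of both mating types were thus mixed, with mat1-Mc, mfm2, mat1-Mi, mam4 and the P-cell gene map3 lower, mam2, sxa2, map2, map4 and sxa1 higher, and map1 at 0.0044. The P-cell genes mat1-Pc and mat1-Pm had no value here, and the part of mating type in the results was not tested.

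**Figure D4:**
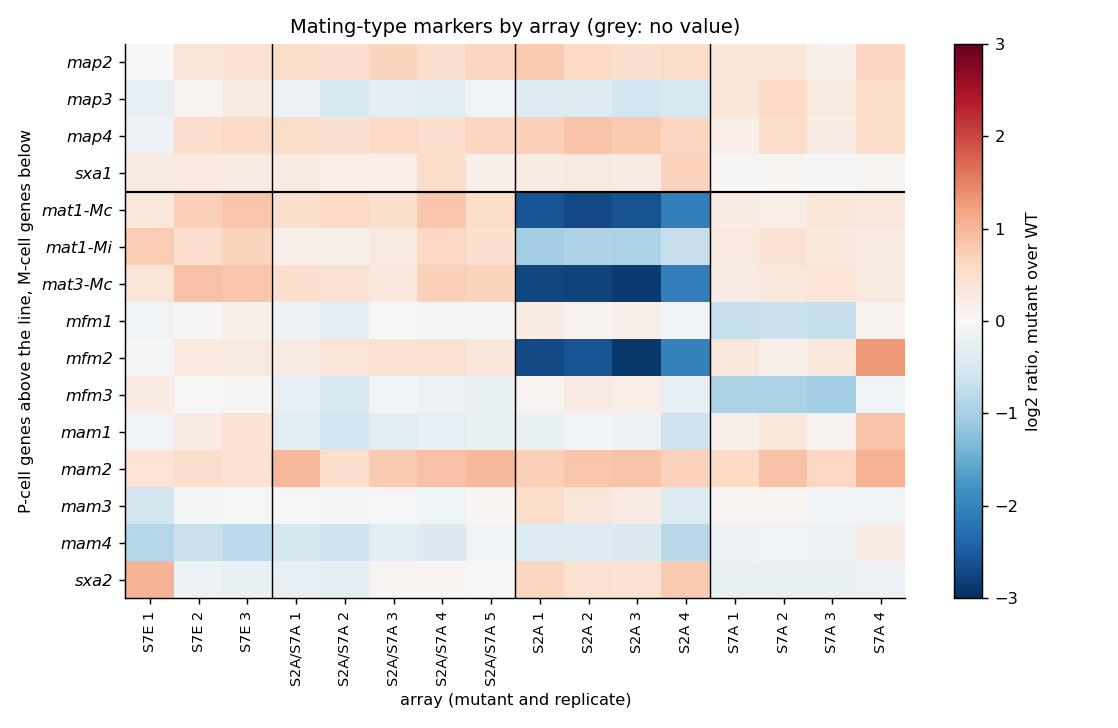
Log2 ratio of mutant over WT on each array (columns) for genes of P cells and of M cells (rows), as a colour scale. mat1-Mc, mat3-Mc and mfm2 are below -2 on the 4 S2A arrays and not on other arrays, and mam2 is higher in all mutants.

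The genes most like ste11 over the 16 arrays, by the root mean square of their log2 difference among 4828 genes with a value on every array, were mat1-Mi (0.31), ght4 (0.39), mat3-Mi (0.40), idn1 (0.42) and gor1 (0.42). mat1-Mi was at 0.64 in S7E, 0.34 in S2A/S7A, -0.91 in S2A and 0.33 in S7A, and ght4, a hexose transporter gene, at 0.41, -0.17, -0.68 and 0.31 in the same order. The closest to mei2 was SPCC1739.08c (0.47), at 1.81 in S7E, 0.71 in S2A/S7A, -0.33 in S2A and 1.39 in S7A. Next came rsv1 (0.80), scr1 (0.81), nep2 (0.81) and ght1 (0.84). No test goes with these distances, and arrays of 1 mutant share a strain.

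**Figure D5:**
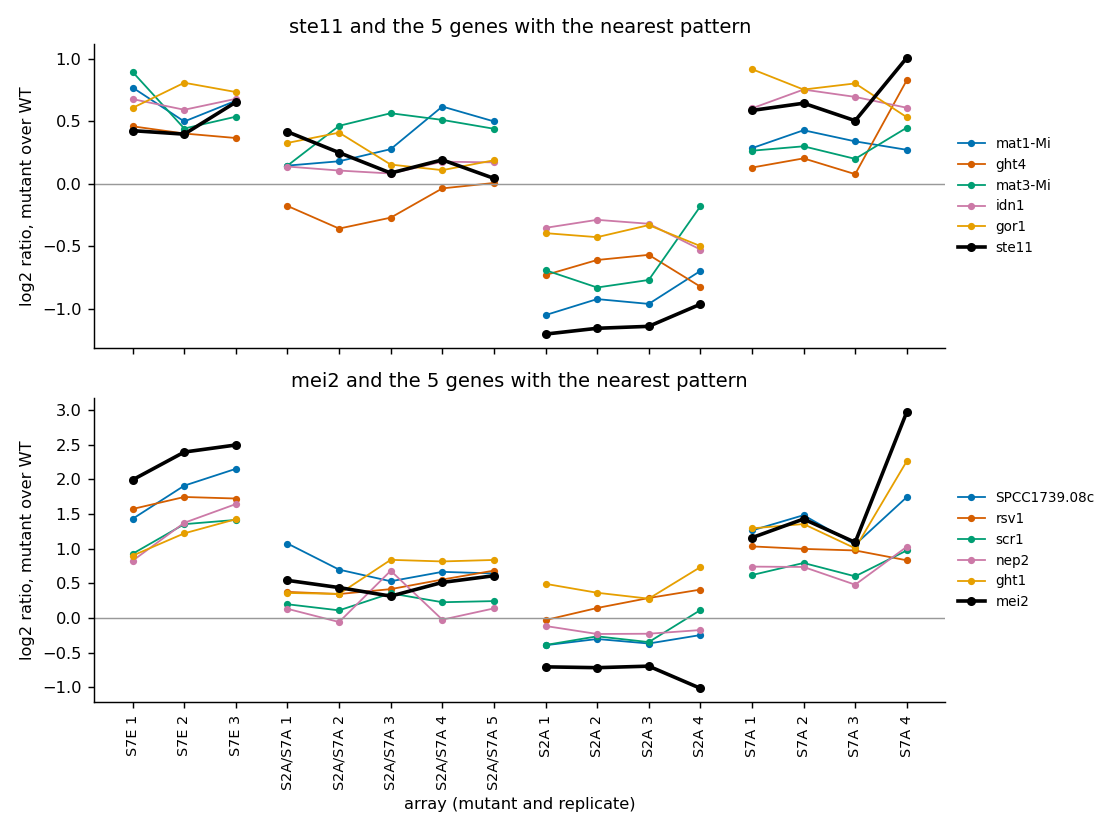
Log2 ratio of mutant over WT (y axis) on each of the 16 arrays (x axis, grouped by mutant) for ste11 and for mei2 (black), with the 5 genes nearest to each in colour. Lines join arrays of 1 mutant and mark no order, and mei2 lies above its 5 nearest genes on the S7E arrays and below them on the S2A arrays.

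The genes on either side of the 9 along the chromosomes were compared last, with 2 on each side and 36 in all. Of these 22 passed in S7E (61.1%), 26 in S2A/S7A (72.2%), 21 in S2A (58.3%) and 8 in S7A (22.2%), against 61.1%, 62.9%, 58.3% and 34.6% of all genes. Beside ste11, the4 was higher in S7E (1.37), S2A/S7A (0.94) and S2A (1.08), so in S2A it and ste11 moved apart, and fes1 was lower in S7E (-0.75) and higher in S2A (0.68). None of the 4 neighbours of mei2 passed with a change of 1.5-fold or more. Others that did were caf16 beside fus1 (-0.74 in S2A/S7A and -0.89 in S2A), hri1 and hus1 beside fus1 (0.88 and 0.85 in S7E), abc2 beside map3 (0.68 in S2A) and dni1 beside spk1 (-0.69 in S2A/S7A).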

How the data were processed

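The deposited table holds 1 log2 ratio for each probe on each of 16 two-colour arrays, per the labels of mutant against WT with dye flips (7 arrays with the mutant in Cy5, 9 in Cy3). The authors' normalization is not stated in the labels. Mutant over WT is likely, since titles name the mutant, and base 2 is likely from the size of the values. Array medians lay between -0.0265 and 0.0267.

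Exon (or non-coding RNA) probes of a gene were averaged. limma's moderated test (version 3.58.1, under R 4.3.3) was run on all 16 arrays with a mean for each of the 4 mutants and a dye term, for 5163 genes measured at least 2 times in every mutant. Each pattern of missing values was fitted exactly, and the code was tested on simulated data. The dye term passed for 2 genes, none of them among the 9. Of 5195 IDs, 5094 matched a RefSeq gene table. Near-identical gene copies may share signal, since probe sequences were not used here. The labels do not say whether all WT RNA came from 1 culture.

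The 9 genes, the lists and the alternatives were chosen with earlier results of these data known. The text names, for each list and mutant, the 3 genes of smallest p that passed and had the same sign on all arrays of the mutant, then neighbours that passed with at least 1.5-fold change, and the 5 nearest patterns. Values of mfm1, mfm3, mat1-Mi and sxa2, and values of named genes in other mutants than the rule chose, were added after they were seen. The alternatives were centring, scaling, array weights, no dye term, other probes or filters, repeated values left out, a replicate block, each array left out, and 3 arrays that stand apart left out together (S7E replicate 1, S2A replicate 4, S7A replicate 4). Of 21 pairs of arrays with the same number in different mutants, correlations of deviations ran from -0.23 to 0.42, so numbers were not taken as pairs.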

Additional observations from a re-analysis of the deposited data

Results flagged for a closer look

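On 1 of the 4 S2A arrays, S2A replicate 4, both mei2 and sxa1 lay apart from the rest. mei2 read -1.01 there, against -0.72 to -0.69 on the other 3, and sxa1 read 0.70, against 0.24 to 0.27. The gap to the nearest array was 0.931 and 0.933 of the range of the 4 arrays, past Dixon's 95% critical value. Of 27 groups of 4 or 5 arrays 2 were flagged, and chance flags about 5% of groups. The 3 S7E arrays are too few for that rule.

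The double mutant S2A/S7A differed from the sum of the single mutants for ste11 (0.63 above it), gpa1 (0.54 above it) and map2 (-0.41, below it), by a test of that difference. The ste11 call was lost with arrays scaled to equal spread (adjusted p = 0.116) and the gpa1 call with the replicate block (0.0519). For map2 it was lost in 9 of 27 alternatives.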

How the results depend on the processing

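Over 2662 values of the 9 genes under the alternatives, 2548 kept their side of the threshold, 58 lost and 56 gained a call, and no called value changed sign. Signs of 43 uncalled values changed, among them mei2 between S7E and S7A with scaling (-0.34). Of 405 counts of the 9 genes, 14 moved by over 1.5 times. The count lower in S2A/S7A was 1 in place of 2 over the 4829 genes with a value on all 16 arrays, where gpa1 was not tested. The count higher in S7E ran from 3 to 7 when arrays were left out. Between S7E and S7A it was 1, and 2 with scaling, 5 with array weights, 2 with the arrays of these mutants alone, 3 without the 3 arrays that stand apart, and 0 to 4 when each array was left out. Between S7E and S2A/S7A it was 4, and 7 with array weights and 3 to 7 when each array was left out. Against the sum of the single mutants it was 3, and 2 to 3 when each array was left out. The causes were not tested.

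With the replicate block, 93 of 99 values kept their call, 4 lost it and 2 gained it. The count between S7E and S7A became 2 and that against the sum of the single mutants 1, where gpa1 (adjusted p = 0.0519) and map2 (0.0880) lost their calls. The count for pheromone signalling in S7A became 3. The labels do not say what the numbers share.

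Of 432 list counts 11 moved. Pheromone signalling in S7A passed for 5 genes, and for 8 with scaling, 8 with array weights and 2 to 6 when each array was left out, and in S2A/S7A for 7, and 4 with all probes averaged. The nutrient and kinase list passed for 11 in S7A, and 7 to 12 when each array was left out, and for 9 in S2A, and 17 with array weights. M-cell genes in S7A passed for 8, and 4 to 9 when each array was left out, and in S2A for 7, and 11 with array weights or without the 3 arrays.

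Over all genes, 8 of 297 counts moved. S7A had 1785, and 2682 with scaling and 3073 with array weights. S2A/S7A minus S2A had 1200, and 2280 with array weights and 2135 without the 3 arrays. S7E minus S2A had 1831, and 2882 with array weights and 1187 with the arrays of these mutants alone. The contrast with the sum had 1363, and 2532 with array weights and 2097 without the 3 arrays.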
